A study of Drosophila melanogaster with 6 samples.

Results

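The cytosolic ribosome of Drosophila melanogaster was examined through the genes of its protein subunits in the larval proventriculus, the valve-like organ between foregut and midgut. Members were the genes whose array annotation symbol began with RpL or RpS (RpLP for the stalk) followed by a digit, and where a gene had several probe sets the brightest over the 6 arrays was used. This gave 41 of 11982 genes, 16 of the small subunit and 25 of the large subunit. The RefSeq gene table holds 92 protein-coding genes of this symbol pattern, and the other 51 were not read by a probe set with a single symbol and are not analysed here.

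The ribosome is made of a small subunit, which decodes the mRNA, and a large subunit, which joins amino acids. Ribosomal proteins are needed in matched amounts, and in flies the loss of 1 copy of many of these genes gives the Minute phenotype of slow development and thin bristles. G418 is an aminoglycoside that acts on the ribosome itself and disturbs elongation, and a neomycin resistance enzyme can inactivate it. Most fly ribosomal proteins are encoded by a single gene, while some have a second copy, and several of these second copies are known from the germline.

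The study measured proventriculus RNA of larvae at instar 3 on 6 Affymetrix expression arrays, to ask which RNAs differ under a toxic challenge and in later generations. G418-challenged larvae had 2 arrays and unchallenged larvae had 2, while F3 larvae, themselves unchallenged, had 1 array with past exposure of the F1 generation and 1 without it. All groups carried hairy-gal4 and UAS-neoGFP, so the transgene is driven where the hairy driver is active and not in every cell, and it is present in the unchallenged larvae too. The labels do not say whether arrays hold pooled animals, nor whether a group's 2 arrays are separate dissections, so p-values here reflect a spread that may be only technical.

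Of 9 listed proventriculus and foregut markers 6 were measured. On the linear scale they summed to 1974 and 3271 on the G418 arrays and to 3579 and 3527 on the unchallenged arrays, and all 6 had a negative change with G418 (median -0.56 on the log2 scale). In F3 they summed to 4980 with past exposure and 7651 without it. This gap rested on Muc11A, at 4.74 with past exposure and 11.43 without it on the log2 scale. Of the 6 markers 3 were higher with past exposure and 3 lower. The foregut regulator dve lay between 10.30 and 11.58 on the log2 scale on all arrays, and fkh between 8.44 and 10.16. The mucin gene Muc11A ranged from 4.46 on unchallenged replicate 2 to 11.43 in F3 without past exposure. Markers of other tissues differed between arrays. The 9 measured nervous tissue markers (of 11 listed) summed on the same scale to 240 and 259 for the G418 larvae (replicates 1 and 2), against 240 and 2076 for the unchallenged larvae, with fne and repo at 9.69 and 7.42 on unchallenged replicate 2 and at or below 3.92 elsewhere. The 10 salivary gland markers summed to 120891 and 61232 on the G418 arrays, against 2373 and 38145 on the unchallenged arrays. They did not move together. Between the unchallenged arrays 7 were higher on replicate 2, while ng1, ng2 and ng3 were lower there. On G418 replicate 2 these 3 were at 3.33, 3.40 and 5.38 on the log2 scale, against 10.02, 10.39 and 12.25 on G418 replicate 1. Of 7 fat body markers 4 were measured, and they summed to 37114 and 49515 with G418 and to 60618 and 24120 without challenge. On the F3 arrays the fat body sum was 12107 with past exposure and 869 without it, the haemocyte sum 1985 and 1102, and the muscle sum 3231 and 1999.

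All 29 members other than the listed second copies and -like genes were among the brightest probe sets. Their mean levels lay between 13.29 for RpL27 and 14.32 for RpS29, at percentiles 99.14 to 99.86 of all probe sets. Of 122 genes at or above the 99th percentile 29 were these members, which is 70.7% of the 41. Probe sets bind their targets with different strength, so a level is not an amount that can be set against that of another gene, and near the top of the scale an array can compress differences. A sample with fewer cells of a type and one with less RNA per cell cannot be told apart in these bulk samples.

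**Figure D1:**
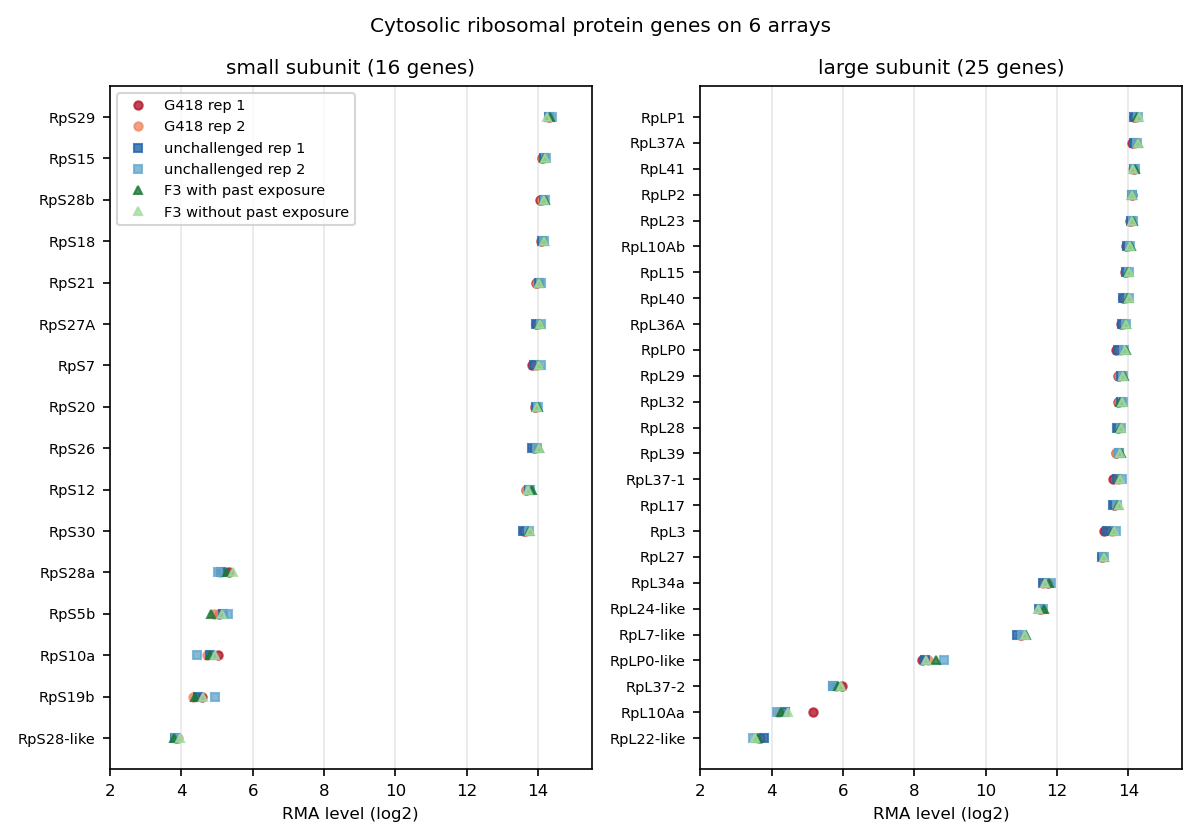
RMA level (log2, horizontal axis) of each of the 41 genes on each of the 6 arrays, small subunit on the left and large subunit on the right, with 1 symbol per array. The 29 genes other than second copies and -like genes form a column between 13.29 and 14.32 in their mean levels, and 12 second copies and -like genes lie below it, from RpL34a at 11.70 down to RpL22-like at 3.62.

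The members varied little between arrays. The range over the 6 arrays had a median of 0.15 on the log2 scale over these 29 genes, against 0.37 over the 12 second copies and -like genes, 0.35 over the other 93 genes at or above the 99th percentile and 0.56 over all genes. Of the 120 genes with the smallest ranges 11 were members. RpLP2, a protein of the stalk that recruits translation factors to the large subunit, had the smallest range of all 11982 genes on the deposited values, 0.017. On these values it stood at 14.11 and 14.10 with G418, 14.10 and 14.09 unchallenged, and 14.10 in both F3 samples. With the arrays quantile normalized once more, its change with G418 was 0.029 and its F3 difference -0.021, both larger in size than that range. The order of ranges under that scaling is not given here. Its stalk partner RpLP1 was at 14.16 and 14.21 with G418, against 14.15 and 14.28 unchallenged. The stalk base RpLP0 was at 13.66 and 13.76 with G418 and at 13.72 and 13.88 unchallenged. Both partners were highest on unchallenged replicate 2 of these 4 arrays, which RpLP2 was not.

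The largest range among the 29 was 0.34, for RpL3, a protein of the large subunit's catalytic centre. RpL3 had 13.32 and 13.53 with G418 (replicates 1 and 2), against 13.41 and 13.66 unchallenged, and stood at 13.57 in F3 with past exposure and 13.60 without it. In both groups replicate 1 was the lower array, and the groups overlapped. RpL32, long used in fly work as a control transcript under the name rp49, had 13.71 and 13.72 with G418 and 13.78 and 13.86 unchallenged, with no overlap. On the F3 arrays it stood at 13.77 with past exposure and 13.82 without it.

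The first comparison set G418-challenged against unchallenged larvae. Cytosolic ribosomal protein genes stood slightly lower with G418, by a median log2 change of -0.046 over the 41 genes (0.968-fold), against -0.017 over all 11982 genes. A negative change was found for 32 of 41 members, against 52.3% of all genes. None passed the test: limma called 0 of 41 members, as it called 0 of all 18769 probe sets (0%), and 0 of 41 had an unadjusted p under 0.05, against 3.54% of all probe sets. The lowest adjusted p of a member in limma was 0.788. At least a 2-fold change was found for 0 of 41 members, against 5.18% of all genes.

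Both G418 arrays lay below both unchallenged arrays for 13 of 41 members, against 20.1% of all genes, and above them for 2, against 18.3%. The 13 were RpL23, RpL27, RpL29, RpL32 and RpL39 of the large subunit and RpS12, RpS15, RpS18, RpS20, RpS21, RpS28b, RpS29 and RpS5b of the small subunit. The 2 above were the second copy RpL37-2 and RpS28-like. With each array centred on its 99th percentile, an alternative chosen after seeing the data, 2 lay below and 2 above. With median centring 7 lay below and 2 above. Without G418 replicate 2 there were 24 below and 6 above, and without unchallenged replicate 1 there were 34 and 7. Without unchallenged replicate 2 there were 14 below and 10 above. The shares of all genes under these alternatives are not given here, and fewer arrays make it easier not to overlap. The counts under the alternatives thus cannot be set against 20.1% and 18.3%.

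The changes of RpL29, RpS12 and RpS28b were smaller than the fit's SE. RpL29, a large subunit protein, had 13.69 and 13.73 with G418 and 13.80 and 13.85 unchallenged. Its log2 change was -0.11 ± 0.13 (SE), with a 95% interval of -0.47 to 0.25 and an adjusted p of 0.826 in limma. RpS12, which in flies also takes part in the competition between Minute and wild-type cells, had 13.67 and 13.66 with G418, against 13.75 and 13.76 unchallenged, a change of -0.087 ± 0.13. RpS28b, of the small subunit, had 14.06 and 14.12 with G418 and 14.18 and 14.20 unchallenged, a change of -0.10 ± 0.13. In these 3 genes the groups did not overlap, and the changes were no larger than that of RpL29. Limma's SE takes in the spread of all probe sets: it was 0.13 for RpS12, whose 2 arrays per group differed by an SD of 0.0076 with G418 and 0.0095 unchallenged. Over the 29 genes, each gene's own unadjusted 95% interval held 0. The lowest limit was -0.58 (RpL3) and the highest 0.39 (RpS26).

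Other members at the low end were RpL3 and RpL37-1 at -0.11, RpL32 at -0.10, RpS7 at -0.096 and RpS21 at -0.091. The values of RpL3 and RpS7 depended on the probe sets: without _s_at probe sets they were 0.21 and 0.015, and RpL3 was 0.16 with its probe sets averaged. Read by its brightest probe set, RpL3 was at 0.022 without unchallenged replicate 2. At the high end were RpS26 at 0.010, RpLP2 at 0.0055, RpLP1 at -0.026, RpL17 at -0.029, RpS30 at -0.030 and RpL41 at -0.032. RpS30, made in the fly as a fusion with a ubiquitin-like protein, was at 13.60 and 13.66 with G418 and at 13.58 and 13.75 unchallenged, and the groups overlapped. The ubiquitin fusion proteins RpS27A and RpL40 had changes of -0.046 and -0.061. RpL37A, a single-copy gene that is distinct from RpL37-1, was at -0.078. The remaining members among the 29 lay between these values: RpL10Ab, RpL15, RpL23, RpL27, RpL28, RpL36A, RpL39, RpLP0, RpS15, RpS18, RpS20 and RpS29.

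Unchallenged replicate 2 was the highest of the 4 G418 and unchallenged arrays for 28 of the 29 genes, the exception being RpLP2, and G418 replicate 1 was the lowest for 21. Over all 6 arrays it was the F3 array with past exposure that was highest for 7 and the one without for 6, against 15 for unchallenged replicate 2. The median level of the 29 was 14.01 on unchallenged replicate 2 and 13.99 and 14.01 in F3 with and without past exposure. On unchallenged replicate 1 it was 13.89, and with G418 13.89 and 13.92. Over all 41 members the median difference between unchallenged replicates 2 and 1 was 0.076, with 36 of 41 above 0, against 0.0037 and 50.5% over all genes, and 0 of 41 members differed at least 2-fold between these 2 arrays, against 8.56%. That is larger in size than the median change with G418. Between G418 replicates 2 and 1 the median was 0.022, with 29 of 41 above 0, against 54.4% of all genes. Without unchallenged replicate 2 the median change with G418 was -0.0054, and without unchallenged replicate 1 it was -0.093. The median level of the members, each centred on its own mean, was -0.033 and -0.012 with G418 and -0.019 and 0.065 unchallenged, and an exact two-sided permutation test over the 4 arrays gave p = 0.667, where 2 against 2 cannot go below 0.333. The nervous tissue sum was highest on unchallenged replicate 2, at 2076, where 4 of the 9 markers were at least 2-fold higher than on replicate 1. G418 replicate 1 had the highest salivary gland sum of the 6 arrays, 120891, and the lowest proventriculus and foregut sum, 1974. The part of these markers in the result was not tested.

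**Figure D2:**
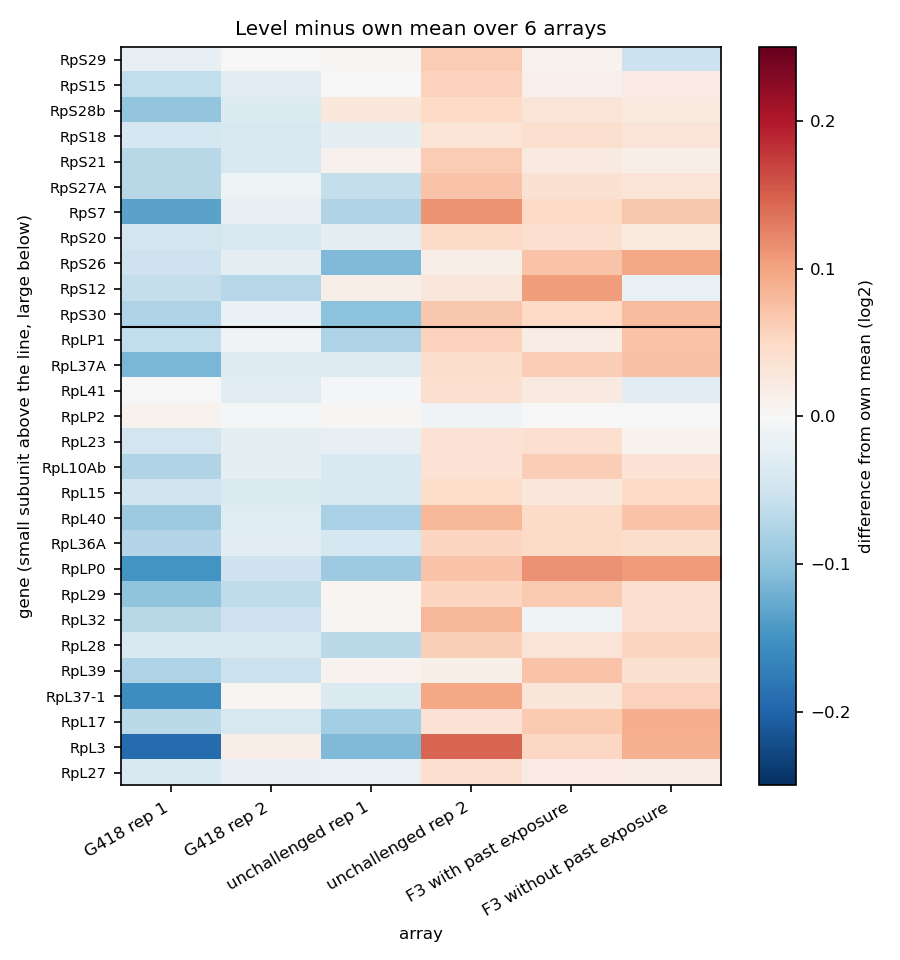
Level of each of the 29 genes on each array minus its own mean over the 6 arrays (log2, colour scale from -0.25 to 0.25), genes in rows with the small subunit above the line and arrays in columns. G418 replicate 1 is blue in most rows and unchallenged replicate 2 red in most rows, while the row of RpLP2 is nearly white, with a range of 0.017.

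Small and large subunit genes stood at medians that differed by less than the arrays of a group did. The median change with G418 was -0.051 over the 16 small subunit genes, with 12 negative, and -0.043 over the 25 large subunit genes, with 20 negative. Without the second copies and -like genes the medians were -0.055 for 11 and -0.052 for 18 genes. The median small subunit deviation minus the median large subunit deviation was -0.0032 and -0.016 with G418, against 0.014 and -0.012 unchallenged. The difference between the groups, -0.010, had p = 0.667 in an exact two-sided permutation test over the 4 arrays, against a smallest possible 0.333. By groups that did not overlap, 8 of 16 small subunit genes and 5 of 25 large subunit genes were below with G418, against 20.1% of all genes, and the difference between these shares was not tested.

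By chromosome arm in the RefSeq gene table (assembly Release 6), 3 members lie on X, 9 on 2L, 10 on 2R, 5 on 3L and 14 on 3R. The genes of this family are thus spread over the genome and not clustered on 1 arm. Median changes with G418 lay between -0.048 on 3L and -0.043 on 3R for the arms of chromosomes 2 and 3. The median on X was -0.10, over only 3 members, where the gene table holds 14 genes of this pattern.

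The 12 second copies and -like genes fell into 2 sets by level, a division made after the values were seen. RpL34a, RpL24-like, RpL7-like and RpLP0-like had mean levels between 8.44 and 11.70, at percentiles 80.03 to 97.67. RpL37-2, RpS28a, RpS5b, RpS10a, RpS19b, RpL10Aa, RpS28-like and RpL22-like lay between 3.62 and 5.83, at percentiles 17.2 to 57.4, where RMA values carry little signal and an order of levels has no meaning. RpL24-like, RpL7-like and RpLP0-like are related to yeast factors that hold a place in the maturing large subunit (Rlp24, Rlp7 and Mrt4) and are not second copies in the strict sense. RpS5b, RpS19b, RpS10a and RpL22-like are known from the fly germline. Several main copies of these families, such as RpS5a, RpS10b, RpS19a, RpL22 and RpL24, are not analysed here.

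**Figure D3:**
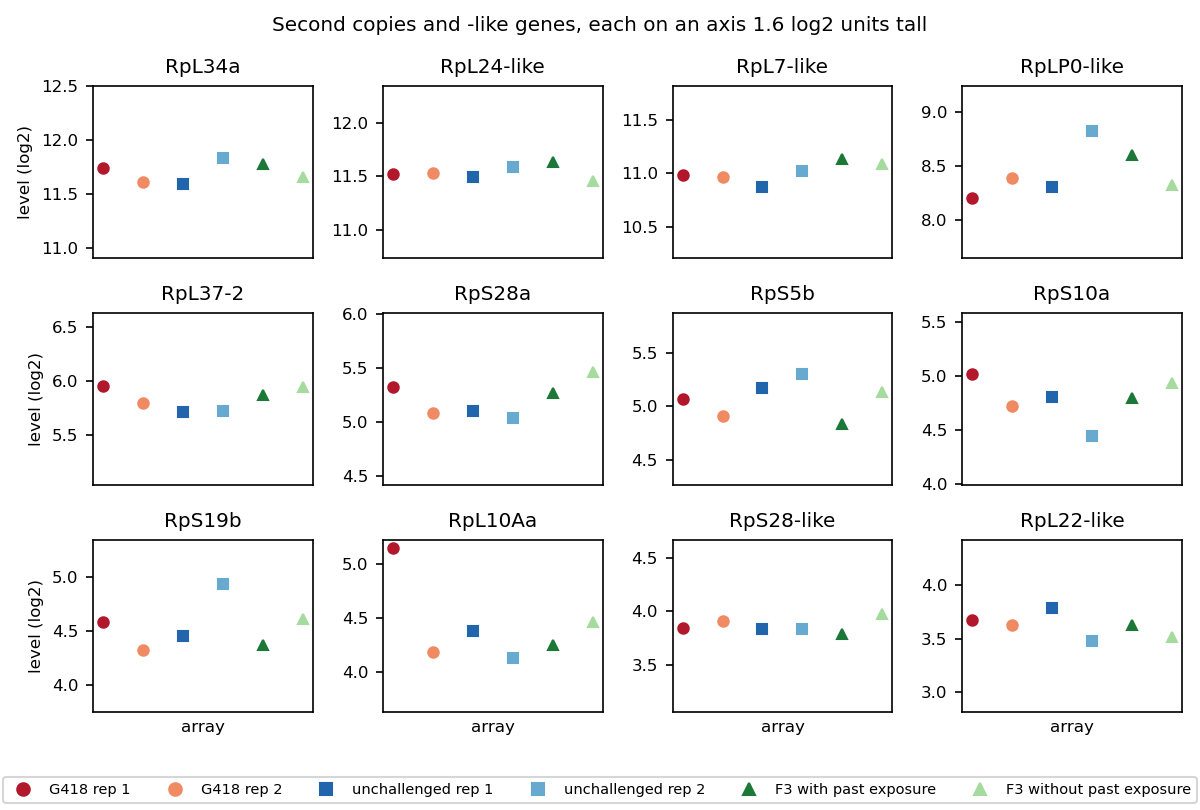
Level (log2) of each of the 12 second copies and -like genes on the 6 arrays, in the order of the legend, with each vertical axis 1.6 log2 units tall and centred on the gene's mean. RpL10Aa stands apart on G418 replicate 1 at 5.15, and RpLP0-like on unchallenged replicate 2 at 8.83.

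In 4 families the main copy was measured beside the dimmer one. RpL10Ab had 13.92 and 13.98 with G418 and 13.96 and 14.04 unchallenged. Its dimmer copy RpL10Aa had 5.15 and 4.18 with G418, against 4.38 and 4.13 unchallenged. The value on G418 replicate 1 alone was high, by 0.97 over replicate 2, and the change of 0.41 ± 0.37 (SE, limma adjusted p = 0.794) rests on that array: without G418 replicate 1 it was -0.075.

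RpL37-1 had 13.56 and 13.72 with G418 and 13.68 and 13.81 unchallenged, a change of -0.11 ± 0.15 (SE). Its copy RpL37-2 had 5.95 and 5.80 with G418, against 5.71 and 5.72 unchallenged, with no overlap, and a change of 0.16 ± 0.14 (SE, limma adjusted p = 0.792). The 2 copies thus had changes of opposite sign, that of RpL37-1 smaller and that of RpL37-2 slightly larger than its SE. With the arrays quantile normalized once more, RpL37-2 had a change of 0.27. The difference between the copies was not tested.

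In the RpS28 family, RpS28a had 5.32 and 5.09 with G418 and 5.10 and 5.03 unchallenged, and RpS28-like had 3.84 and 3.91 with G418 and 3.83 and 3.84 unchallenged. Their changes were 0.14 ± 0.16 and 0.042 ± 0.13 (SE), beside -0.10 for RpS28b. RpLP0-like had 8.20 and 8.39 with G418, against 8.30 and 8.83 unchallenged, a change of -0.27 ± 0.23 (SE, limma adjusted p = 0.788) beside -0.091 for RpLP0. Its high value was on unchallenged replicate 2, and without that array the change was -0.011.

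The other members of these families gave no call either. RpS5b was lower with G418 on both arrays, at 5.06 and 4.91 against 5.17 and 5.30, a change of -0.25 ± 0.15 (SE) with the smallest unadjusted p of all members, 0.169, in limma. RpS10a was at 5.02 and 4.72 with G418 and at 4.81 and 4.44 unchallenged, a change of 0.25 ± 0.21 (SE), and the groups overlapped. With 1 array left out it lay between 0.067 and 0.43. RpS19b had 4.58 and 4.32 with G418, against 4.45 and 4.93 unchallenged, a change of -0.24 ± 0.23 (SE) that was 0.00064 without unchallenged replicate 2. RpL22-like lay between 3.48 and 3.79 on all arrays. RpL34a, RpL24-like and RpL7-like had changes of -0.034, -0.015 and 0.030. Over the 12 genes the median change was 0.024, with 7 positive and 5 negative.

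The second comparison set F3 larvae with past exposure of F1 against F3 larvae without it, with 1 array each and thus no test. The ribosomal protein genes stood at nearly the same level on both arrays, with a median log2 difference of 0.0014 over the 41 genes, against 0.015 over all genes. Of 41 members 21 were higher with past exposure, against 53.2% of all genes, and 0 differed at least 2-fold, against 1.54%. Among the 29 genes other than second copies and -like genes the differences lay between -0.053 (RpLP1) and 0.12 (RpS12). RpS12 stood at 13.84 with past exposure and 13.71 without it. The next highest of the 29, RpS29, was at 14.33 and 14.26. With each array centred on its 99th percentile the median difference of the 41 genes was 0.047.

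The small subunit median was -0.012 and the large subunit median 0.0018 in the F3 comparison. Without the second copies and -like genes they were 0.0070 and -0.0055, so the order of the subunits turned with the choice of genes. The unchallenged replicates differed by a median of 0.060 for small and 0.086 for large subunit genes, which is more than either F3 median.

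For the second copies and -like genes the F3 values are given as a description. RpLP0-like stood at 8.60 with past exposure and 8.32 without, RpL24-like at 11.64 and 11.45, RpL34a at 11.77 and 11.66, and RpL7-like at 11.13 and 11.09. Among the dim ones, whose values carry little signal, RpS5b was at 4.84 with and 5.13 without, RpS19b at 4.37 and 4.61, RpL10Aa at 4.25 and 4.47, and RpS28a at 5.27 and 5.46. RpS28-like, RpS10a, RpL37-2 and RpL22-like differed by -0.18, -0.14, -0.075 and 0.11. Between the 2 unchallenged arrays RpLP0-like differed by 0.52, RpS19b by 0.48, RpS10a by -0.37 and RpL22-like by -0.31. The gap between the unchallenged arrays was larger in size than the F3 difference for 7 of the 12 genes, and smaller for RpS5b, RpL24-like, RpS28a, RpS28-like and RpL37-2.

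**Figure D4:**
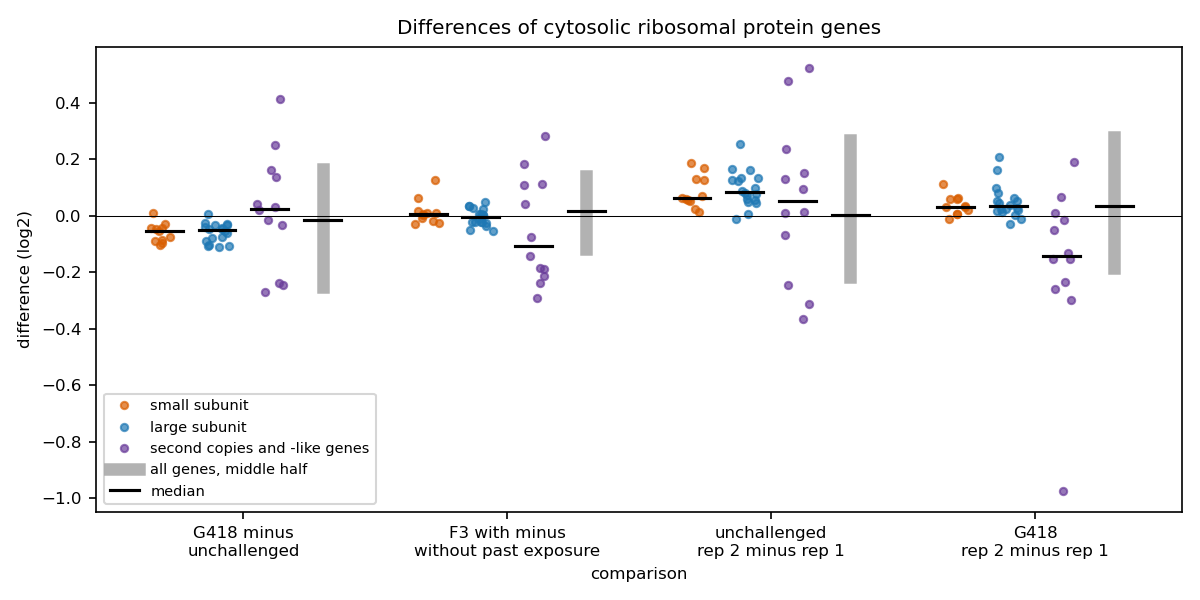
Log2 difference of each gene in 4 comparisons, for small subunit genes (11), large subunit genes (18) and second copies and -like genes (12), with black bars at the medians and grey bars for the middle 50% of all genes. The small and large subunit points lie in narrow bands, near -0.05 with G418 and near 0 in F3, and unchallenged replicate 2 minus 1 lies above 0 for 28 of the 29.

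Other genes of translation were measured beside them, from lists chosen with earlier results of these data known. Rack1, a small subunit protein outside the symbol rule, had 13.53 and 13.64 with G418 and 13.58 and 13.80 unchallenged, a change of -0.11. Of 27 measured initiation factors 12 were higher and 15 lower with G418, with a median of -0.0054, and 0 passed. Without unchallenged replicate 2 there were 17 higher and 10 lower, with a median of 0.080, and without unchallenged replicate 1 there were 7 and 20, with a median of -0.10. eIF3c, a subunit of the factor that loads the small subunit, was at 9.58 and 10.19 with G418 and at 9.34 and 9.53 unchallenged, with a change of 0.45 ± 0.26 (SE, limma adjusted p = 0.788) and no overlap. eIF6, which keeps the subunits apart, was at 0.25, and eIF1 and eIF5B at -0.19 and -0.17.

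All 6 measured elongation and termination factors had a negative change with G418 (median -0.090), and 0 passed. Between the unchallenged arrays, replicate 2 stood above replicate 1 for all 6 (median 0.16). Without unchallenged replicate 2 the change was negative for 3 of 6, and without unchallenged replicate 1 for all 6 (median -0.18). eEF5, the factor that helps ribosomes through proline stretches, was at -0.072, eEF1delta at -0.11 and the release factor eRF1 at -0.16. The elongation factor gene eEF1alpha2 had 6.79 and 7.32 with G418, against 8.09 and 12.14 unchallenged. Its high value stood on unchallenged replicate 2, where 4 of the 9 measured nervous tissue markers were at least 2-fold higher than on replicate 1. The part of these was not tested.

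Of 14 measured TOR and ribosomal protein gene regulators 5 were higher and 9 lower with G418, with a median of -0.14, and 0 passed. Without unchallenged replicate 2 the median was 0.017, and without unchallenged replicate 1 it was -0.21. Without G418 replicate 1 it was -0.011, and without G418 replicate 2 it was -0.24. S6k, the kinase of the small subunit protein S6, was at 9.57 and 10.04 with G418 and at 9.10 and 9.62 unchallenged, a change of 0.45 ± 0.28 (SE) with overlap. It stood at 10.09 in F3 with past exposure and at 9.63 without it. Dref, a regulator of growth genes, was at -0.29, Irbp18, the partner of the Minute response factor Xrp1, at -0.23, and the TOR inhibitor Tsc1 at -0.17.

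Of 39 measured genes listed for nucleolar ribosome biogenesis 36 had a negative change with G418 (median -0.22), against 52.3% of all genes, and 0 passed. The list holds Rrp1 (a DNA repair enzyme), bor (a mitochondrial ATPase) and Ssb-c31a (a transcription coactivator), and without them 33 of 36 had a negative change, with a median of -0.20. The count depended on which unchallenged array was used. Without unchallenged replicate 2, 19 of 39 were negative, with a median of 0.0097. Without unchallenged replicate 1, 37 of 39 were negative, with a median of -0.40. Without G418 replicate 1 the median was -0.095, and without G418 replicate 2 it was -0.35. Polr1A, the largest subunit of RNA polymerase I, had 7.58 and 7.78 with G418 and 7.89 and 8.29 unchallenged, with no overlap and a change of -0.41 ± 0.20 (SE, limma adjusted p = 0.788). Nnp-1, Nopp140 and l(3)72Dn were at -0.49, -0.46 and -0.34. This list also differed between the unchallenged arrays, with a median of 0.39 for replicate 2 minus 1 and 36 of 39 above 0. Of 69 mitochondrial ribosomal protein genes 51 had a negative change (median -0.092), and between the unchallenged arrays their median differed by 0.26. With unchallenged replicate 2 left out, 24 of 69 were negative, with a median of 0.033. With unchallenged replicate 1 left out, 63 of 69 were negative, with a median of -0.20. In F3 the medians were 0.13 for nucleolar biogenesis genes and 0.12 for mitochondrial ribosomal proteins, with 33 of 39 and 61 of 69 higher with past exposure, beside 21 of 41 for the cytosolic ribosomal proteins and 53.2% of all genes. The fat body, haemocyte and muscle sums given above were higher on the array with past exposure too, and their part was not tested. These differences between lists were not tested.

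**Figure D5:**
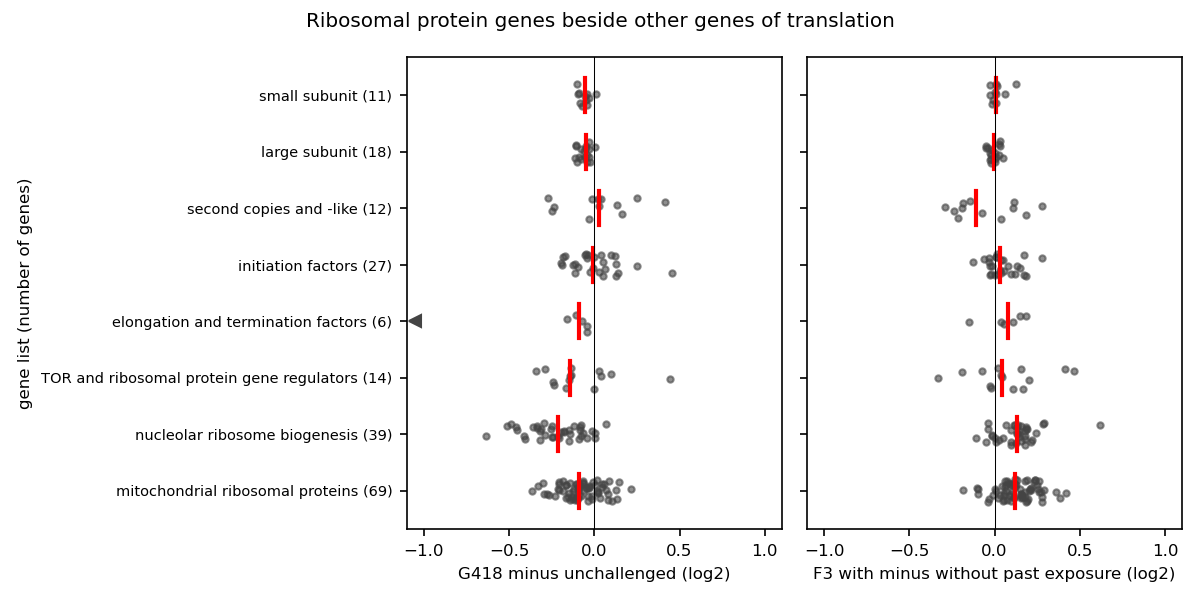
Log2 difference of each gene for G418 minus unchallenged on the left and F3 with minus without past exposure on the right, by gene list, with red bars at the medians. Nucleolar biogenesis genes have the lowest median with G418 at -0.22, and the triangle marks eEF1alpha2 beyond the axis at -3.06.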

How the data were processed

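Per the submitters' processing notes, the authors made the deposited log2 values by RMA (background correction, normalization between arrays, probe set summary) in Affymetrix Expression Console. Its version and the set of arrays normalized together were not given in the sources used here. Of 18952 probe sets, 183 controls were left out and 18769 tested. Symbols came from the array's annotation table, updated through RefSeq gene identifiers: 13647 probe sets had 1 symbol, 402 several and 4720 none. Precision is limited by the number of arrays. Array medians lay between 4.92 and 5.03.

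The G418 arrays were set against the unchallenged ones in limma 3.58.1 (lmFit, eBayes, R 4.3.3), with Benjamini-Hochberg adjustment over all 18769 probe sets and a threshold of 0.05. F3 arrays were described only. The fit was tested on simulated data. Of the members, 14 are read by probe sets marked _s_at, which can match several transcripts, and similar copies may not be fully separated. The members and lists were chosen with earlier results of these data known. Named genes were all measured paralogs, the 6 other members with the largest change in each direction with G418, the 4 with the smallest p, the 4 with the largest F3 difference in each direction, the 4 with the largest gap between unchallenged arrays, the lowest and highest mean, and up to 4 genes per list by p; other names were chosen after their values were seen. Of the marker lists, 6 haemocyte markers summed on the linear scale to 756 and 1016 with G418 and 1511 and 896 unchallenged, and 4 muscle markers to 2687 and 2296 with G418 and 2844 and 1710 unchallenged.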

Additional observations from a re-analysis of the deposited data

How the results depend on the processing

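The count of 0 members past the adjusted threshold in limma held under every alternative run, the variance prior with trend and the leaving out of each array included, and with the replicate number as a block it was also 0. Nothing in the labels pairs arrays by number. The replicate 2 minus 1 differences of the groups correlated at r = 0.32 across probe sets and at r = 0.46 over the 41 members. With 1 array left out, the lone array of a group is assumed to vary like the other group's. The median change with G418 then lay between -0.093 and -0.0054, the small minus large subunit difference between -0.023 and 0.0031, the members above between 2 and 10 and those below between 14 and 34. Fewer arrays make it easier not to overlap, and the shares of all genes under the alternatives are not given here. Below with G418 were 8 of the 30 members left without _s_at probe sets. Of all 41 members 7 were below after median centring and 2 after 99th percentile centring. Above were 1 of 36 members with dim probe sets (mean under the median mean) left out and 0 of 29 without the dimmer paralogs. In F3 the median was 0.047 after 99th percentile centring, and the subunit difference, -0.014 with all genes, was 0.0015 with them left out and 0.013 without the dimmer paralogs. Of 307 single gene changes with G418 under alternatives 28 changed sign, and of 191 F3 differences 11 did. Part of these values could not change. Examples are single genes when only the paralogs were left out, and genes with 1 probe set when probe sets were averaged. The counts thus do not measure how stable the values are. The cause of the sign changes was not tested.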

Other observations

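Of the members 4 had a further probe set with the same single symbol, and the dimmer ones mostly differed from the brightest in level and change. RpL3 was also read at 8.51 and 8.81 with G418 and 8.14 and 8.76 unchallenged by a second probe set, with a change of 0.21, and at 3.88 and 4.40 with G418 and 3.54 and 4.01 unchallenged by another, with a change of 0.37, beside -0.11 for the brightest. RpS29 was read at 13.89 and 13.89 with G418 and 13.96 and 13.97 unchallenged by its second probe set, a change of -0.075 beside -0.044, and the dimmest lay between 2.94 and 3.18. The second probe sets of RpS30 and RpS7, with mean levels of 6.96 and 4.67, had changes of 0.11 and 0.015. Probe sets that also name another gene read RpLP0 with euc at a change of -0.25 and RpL28 with a small nucleolar RNA gene at -0.25, and both stood highest on unchallenged replicate 2, at 5.49 and 6.33.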
